A study of Mus musculus with 3 samples.

Results

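The mitosis and spindle genes described here are 40 genes that act in the G2 and M phases of the cell cycle. They were chosen by symbol from their known roles, with earlier results of these data known. All 40 were found among the 23337 gene symbols counted in each library. The RNA came from mouse heart tubes at embryonic day 9.5. The series compares 2 libraries of Sox7-null tubes, labelled SOX7 (-/-), with 1 wild-type library. No treatment is recorded, and the sources used here do not give the strain, the allele or how many embryos went into a tube. Sox7 itself encodes a SoxF transcription factor of endothelial and endocardial cells. Because nothing says how the Sox7-null libraries were replicated, p-values here reflect their spread alone, which may be technical, and the 1 wild-type library is assumed to vary in the same way.

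Entry into mitosis is driven by the kinase CDK1 bound to cyclin A or cyclin B. The spindle checkpoint then holds the anaphase-promoting complex in check until the kinetochores of all chromosomes have attached to spindle microtubules, after which securin and cyclin B are destroyed, the sister chromatids separate and the cell divides. Transcripts of these genes build up in G2 and M and are low in cells that have left the cycle. In the embryonic heart the compact wall, the cushions, the endocardium and circulating blood precursors all divide, while trabecular myocardium divides less. In a bulk sample, fewer dividing cells and less RNA in each dividing cell cannot be told apart.

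Sox7-null 1 and 2 had 13139823 and 13618338 reads assigned to genes, and the wild-type library had 13789388. Sox7 had 2 and 7 reads in the Sox7-null libraries and 222 in the wild type (log2 fold change -5.63 ± 0.47, edgeR adjusted p = 3.81e-05). All 10 cardiomyocyte markers examined had reads, whereas the neural and retinal markers Sox1, Six6 and Crx had 0 reads in every library. The highest count of any neural or retinal marker examined was 24 reads, and 2 of these markers had enough reads to be tested. This check was made because the extraction text of the labels names retinal organoids while the tissue label names the heart tube. Reads that did not align uniquely made up 10.4% and 11.6% in the Sox7-null libraries and 22.3% in the wild type.

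All 40 genes were measured and most of them did not pass the test. Each of the 40 genes had at least 210 reads in every library, so none was lost to the filter on low counts. With edgeR at an adjusted p under 0.05, Mad2l1, Cenpa and Birc5 fell in the Sox7-null libraries, Top2a and Kif20a rose, and 35 genes did not pass. Thus 5 of 40 genes, 12.5%, were called, against 21.6% of all 13334 genes tested (10.2% lower and 11.3% higher). The median log2 fold change of the 40 genes was -0.093, beside 0.014 for all genes tested, and Sox7-null 1 alone gave -0.19 and Sox7-null 2 alone -0.0024. In CPM (read counts scaled to library size), both Sox7-null libraries lay below the wild type for 19 of the genes, both lay above it for 12, and the wild type fell between them for 9. Over all 13334 genes tested, both lay below it for 5731 and above it for 5752, and it fell between them for 1851. The summed level of the 40 genes was 3488 and 3914 CPM in the Sox7-null libraries and 4103 in the wild type.

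**Figure D1:**
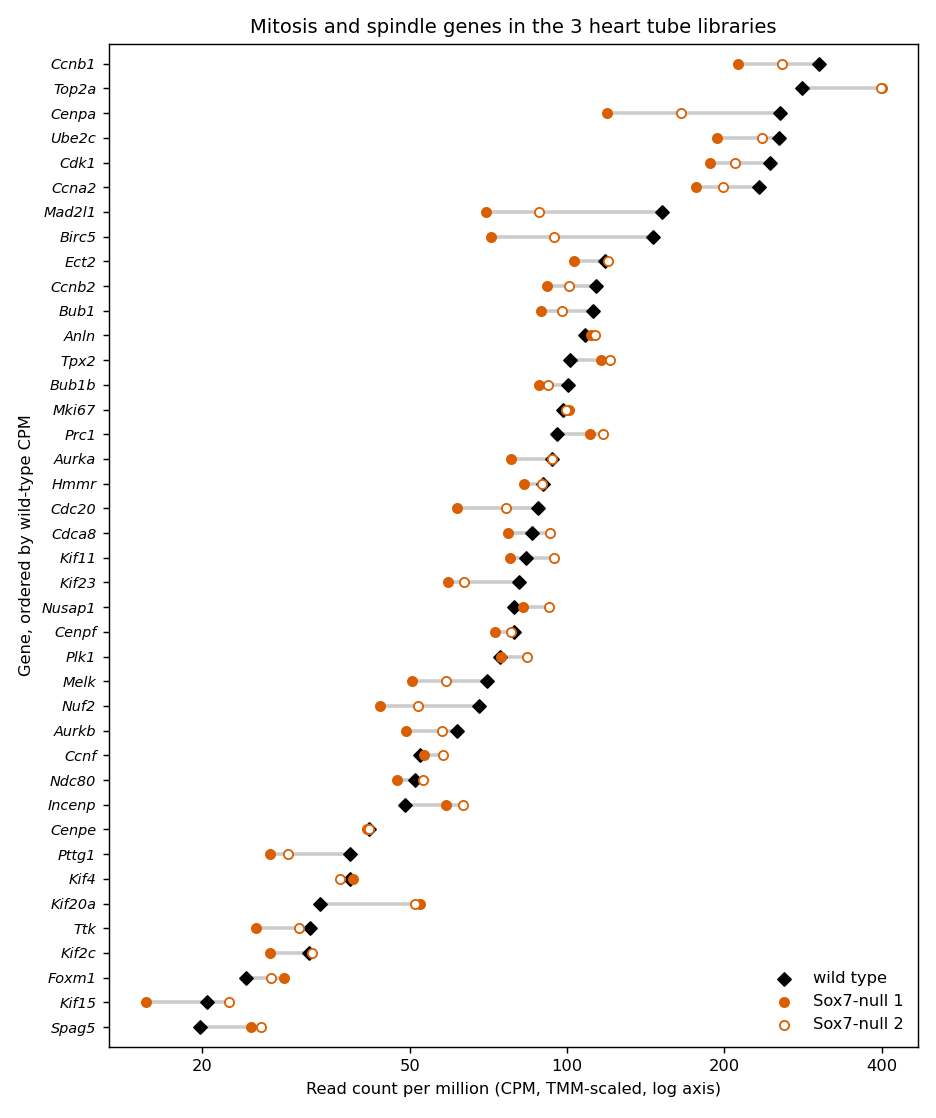
Level in CPM (read counts scaled to library size, log axis) of the 40 genes in each library, ordered by the wild-type level; the filled circle is Sox7-null 1, the open circle Sox7-null 2 and the diamond the wild type. For Mad2l1, Cenpa and Birc5 the diamond lies well to the right of both circles, for Top2a and Kif20a to the left, and for most genes the 3 symbols lie close together.

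Mad2l1 encodes the checkpoint protein MAD2, which binds CDC20 and so restrains the anaphase-promoting complex. Its level was 69.7 CPM and 88.1 CPM for Sox7-null 1 and 2, and the wild type had 152 CPM. Both Sox7-null libraries were lower, and the log2 fold change was -0.94 ± 0.20 (SE), or 1.92-fold lower (edgeR adjusted p = 0.00566). Cenpa encodes the histone H3 variant that marks the centromere. It had 119 and 165 CPM against 255, with the Sox7-null libraries apart from each other but both below the wild type (log2 fold change -0.84 ± 0.20, edgeR adjusted p = 0.0116). Birc5 encodes survivin, a subunit of the chromosomal passenger complex. It had 71.6 and 94.5 CPM against 146, again lower in both (log2 fold change -0.81 ± 0.20, edgeR adjusted p = 0.0139).

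Top2a encodes topoisomerase II alpha, which untangles sister chromatids. Its level was 400.1 and 399.6 CPM in the Sox7-null libraries and 281 CPM in the wild type, so the 2 Sox7-null values nearly coincided above the wild type (log2 fold change 0.51 ± 0.16, edgeR adjusted p = 0.0426). Kif20a encodes a kinesin of the central spindle that is needed for cytokinesis. It had 52.3 and 51.0 CPM against 33.6, also higher in both libraries (log2 fold change 0.62 ± 0.21, edgeR adjusted p = 0.0499). Both calls lay close to the threshold, and neither gene passed with limma-voom (adjusted p = 0.0517 for Top2a and 0.0509 for Kif20a) or DESeq2 (adjusted p = 0.0721 and 0.126). Mad2l1, Cenpa and Birc5 passed with both tools, which called 9.39% of all genes higher and 9.73% lower with limma-voom and 8.8% higher and 6.24% lower with DESeq2. With library totals alone in place of TMM scaling all 5 genes passed, beside 14.9% of all genes higher and 9.1% lower. Exons of Kif20a overlap those of Cdc23 on the opposite strand in GENCODE, and the strand setting of the counting is not given in the sources used here. How reads from the shared stretch were counted is therefore not known. The same limit holds for Ccna2, Cdc20, Kif4, Nusap1, Prc1 and Ube2c, which overlap Exosc9, Elovl1, Pdzd11, Oip5, Rccd1 and Tnnc2 on the opposite strand, and Ccnf overlaps Mir5134 on its own strand. Cdc23 had 64.4 and 78.9 CPM against 82.2 and did not pass (log2 fold change -0.20 ± 0.20, edgeR adjusted p = 0.521).

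Transcript length, and a joint trend on length and base composition, moved with these values. Longer transcripts tended to have higher fold changes among the 40 genes (Spearman's rho 0.53 against length, Pearson's r 0.44 against log10 length). Against the trend on length and GC content fitted over all genes, rho was 0.59 and r was 0.57. These are descriptions across 40 genes of the same 3 libraries, not across samples. The fitted trend for the members ran from -0.48 to 0.35 on the log2 scale. With it removed, 0 of the 40 genes rose and 1 fell in edgeR, beside 9.13% of all genes higher and 7.06% lower. At an unadjusted edgeR p under 0.05, 2 members were higher and 4 lower. At that level 4105 of all 13334 genes passed in either direction.

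The gene that still fell after this step depended on the transcript chosen. Birc5 has 2 RefSeq-paired transcripts of 947 and 3334 bases. With the longest transcript of each gene, Birc5 passed at -0.79 (edgeR adjusted p = 0.00920) and Mad2l1 did not, at -0.53 (edgeR adjusted p = 0.0559). With the shortest, an alternative chosen after the data had been seen, 20.3% of all genes were called (11.1% higher and 9.18% lower). There Mad2l1 passed at -0.60 (edgeR adjusted p = 0.0185) and Birc5 did not, at -0.45 (edgeR adjusted p = 0.0834). Cenpa did not pass in either case, with -0.48 and -0.32 (edgeR adjusted p = 0.0894 and 0.224). Top2a had 0.47 and 0.46 and Kif20a 0.58 and 0.55, with edgeR adjusted p between 0.0533 and 0.0701. All 5 genes thus kept their direction, and none passed under both choices of transcript.

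**Figure D2:**
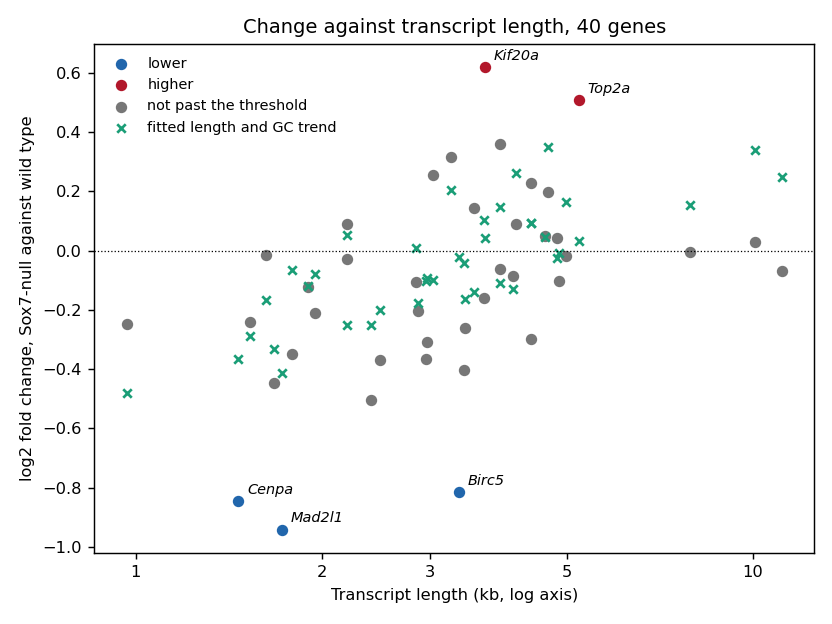
Log2 fold change of the 40 genes (circles) against transcript length in kb (log axis), with the length and GC trend fitted over all genes at each gene's values (crosses). Mad2l1 and Cenpa are short transcripts at the low end, and Birc5 is drawn at its longest RefSeq-paired length of 3334 bases.

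Promoters of the genes that were called are shown because many mitotic genes are known to carry a CHR element, with the core TTTGAA, which binds the MuvB complex, together with CCAAT boxes that bind NF-Y. The RefSeq promoter table (GRCm38.p6, 250 bases before to 50 after the start) held 34 of the 40 genes and lacked Ccna2, Foxm1, Aurkb, Incenp, Tpx2 and Kif20a. Below are the 150 bases before the start of the 3 genes that fell, of Top2a, which rose, and of Cdk1 as a member with CHR letters close to its start. They are written 5′ to 3′ on the gene's strand, and capitals mark TTTGAA, its variant TTCGAA or the CCAAT box on either strand.
Mad2l1, chr6:66535071-66535220, plus strand: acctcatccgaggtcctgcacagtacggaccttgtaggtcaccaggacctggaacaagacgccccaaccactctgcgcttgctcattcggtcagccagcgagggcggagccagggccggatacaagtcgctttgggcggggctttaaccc
Cenpa, chr5:30666736-30666885, plus strand: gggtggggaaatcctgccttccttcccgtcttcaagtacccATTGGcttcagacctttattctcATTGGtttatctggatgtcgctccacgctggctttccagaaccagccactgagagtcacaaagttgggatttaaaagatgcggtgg
Birc5, chr11:117849087-117849236, plus strand: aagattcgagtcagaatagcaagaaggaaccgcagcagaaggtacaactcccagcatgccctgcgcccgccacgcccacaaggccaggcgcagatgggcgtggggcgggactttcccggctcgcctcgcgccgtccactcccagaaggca
Top2a, chr11:99024190-99024339, minus strand: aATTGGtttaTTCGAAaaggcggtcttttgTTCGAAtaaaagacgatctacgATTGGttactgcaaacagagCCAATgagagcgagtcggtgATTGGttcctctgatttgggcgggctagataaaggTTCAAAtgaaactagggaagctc
Cdk1, chr10:69352913-69353062, minus strand: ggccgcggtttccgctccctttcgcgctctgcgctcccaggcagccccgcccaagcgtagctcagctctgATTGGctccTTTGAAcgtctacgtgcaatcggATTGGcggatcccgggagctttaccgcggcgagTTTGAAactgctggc

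Over the whole 300-base window, on both strands, 25 of the 34 genes held TTTGAA, or 73.5%, against 20.2% of 27025 genes in the table. CCAAT was found in 24 of 34, or 70.6%, against 41.1%. Both stood together in 21 of 34, or 61.8%, against 7.97% of all genes, and 23 of the 34 had TTTGAA within 50 bases of the start. The variant TTCGAA was found in 3 of 34 (1.80% of all genes) and the E2F-type letters TTTCGCG in 2 of 34 (0.969% of all genes). Of the called genes, Top2a held TTTGAA 23 bases before its start and Cenpa 17 bases after it, while neither TTTGAA nor CCAAT was found in the windows of Mad2l1 and Birc5. A match is a description of these letters only, and no match says nothing of the factor.

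The CDK1 engine was lower in both Sox7-null libraries for 4 of its 5 genes. However, 0 of 5 passed the test, beside 21.6% of all genes. Ccnb1, the main cyclin of mitotic entry, had 213 and 258 CPM against 304 (log2 fold change -0.37, 95% interval -0.75 to 0.014). Ccna2, the cyclin of S phase and G2, had 176 and 199 CPM against 233 (-0.31, interval -0.69 to 0.067). Cdk1 itself had 187 and 210.0 CPM against 244 (-0.30, interval -0.67 to 0.077). These 3 were within a narrow band of each other. In each, both Sox7-null libraries lay below the wild type, as for 5731 of all 13334 genes tested. Ccnb2 stood at -0.24 and Ccnf, a cyclin-like F-box protein that marks other proteins for destruction, at 0.089. With the length and GC trend taken out, Cdk1 stood at -0.39, Ccna2 at -0.22, Ccnb1 at -0.17, Ccnb2 at 0.045 and Ccnf at -0.17. There too 0 of 5 passed. Foxm1, the transcription factor that activates many G2 and M genes, had 28.6 and 27.1 CPM against 24.3 (log2 fold change 0.20, 95% interval -0.27 to 0.67); it did not pass, and it stood at -0.15 once that trend was taken out.

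Of the 5 mitotic kinases 0 were called, beside 21.6% of all genes. Their median log2 fold change was -0.20, and 3 had both Sox7-null libraries below the wild type. Over all 13334 genes tested, 5731 had both below it. Plk1, which acts in centrosome maturation and mitotic entry, had 74.6 and 83.7 CPM against 74.4 (log2 fold change 0.090, 95% interval -0.33 to 0.51). Aurka, the kinase of the spindle poles, had 78.1 and 93.7 CPM against 93.6, so that Sox7-null 2 and the wild type nearly coincided. Aurkb, the kinase of the chromosomal passenger complex, had 49.0 and 57.5 CPM against 61.6. Ttk, the kinase that starts the checkpoint signal, stood at -0.20. Melk had 50.4 and 58.5 CPM against 70.1 (-0.37, edgeR adjusted p = 0.214).

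Of the chromosomal passenger complex, 1 of 4 genes, Birc5, passed, beside 21.6% of all genes. Its subunits Birc5, Cdca8 (borealin), Incenp and Aurkb had log2 fold changes of -0.81, -0.015, 0.32 and -0.21. Incenp, the scaffold, had 58.7 and 63.1 CPM against 48.9, with both Sox7-null libraries above the wild type, but did not pass (edgeR adjusted p = 0.289). Cdca8 had 76.9 and 92.7 CPM on either side of the wild type at 85.7. The difference between Birc5 and its partners was not tested.

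All 6 genes of the spindle checkpoint and mitotic exit were lower in both Sox7-null libraries, beside 5731 of all 13334 genes tested. Of the 6, only Mad2l1 passed (16.7%, beside 21.6% of all genes). Pttg1, which encodes securin, had 27.0 and 29.2 CPM against 38.3 (log2 fold change -0.45, 95% interval -0.90 to 0.0055). Cdc20, the activator of the anaphase-promoting complex, had 61.5 and 76.4 CPM against 87.9 (-0.35, interval -0.79 to 0.091). Ube2c, the ubiquitin-conjugating enzyme of that complex, had 193 and 236 CPM against 255 (-0.25). The checkpoint kinase Bub1 and its relative Bub1b, which encodes BUBR1, stood at -0.26 and -0.16. Once the length and GC trend was taken out Ube2c stood at 0.23, and this group had a median of -0.19 in place of -0.31, with 0 of 6 called.

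At the centromere and kinetochore 1 of 5 genes, Cenpa, passed. The NDC80 complex, which holds microtubules, gave unlike values for its subunits: Nuf2 had 43.8 and 51.7 CPM against 67.8 (log2 fold change -0.50, edgeR adjusted p = 0.0934) and Ndc80 had 47.2 and 53.0 CPM against 51.1 (-0.028). The difference between them was not tested. Cenpe, a kinetochore motor, had 41.4 and 41.7 CPM against 41.7, the closest agreement among the 40 genes by fold change (-0.0050, 95% interval -0.44 to 0.43). Once the length and GC trend was taken out it stood at -0.16, and Aurka, at -0.0048, was closer. Cenpf, a large kinetochore protein made in G2, had 72.8 and 78.0 CPM against 79.0.

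Of the 6 kinesin motors, Kif20a passed (16.7%, beside 21.6% of all genes) and the other genes did not. Kif23, which with Kif20a acts at the central spindle, had the opposite sign, with 59.0 and 63.5 CPM against 80.9 (log2 fold change -0.40, edgeR adjusted p = 0.156). Kif11, the motor that pushes the spindle poles apart, had 77.6 and 94.4 CPM around a wild-type value of 83.5. Kif15, which can share that task, had the fewest reads of the 40 genes over the 3 libraries together (210, 310 and 271) and the widest interval (-0.67 to 0.46). Kif2c, a microtubule depolymerase, and Kif4, a chromosome-bound motor, stood at -0.11 and -0.020.

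Among the 5 proteins that bind spindle microtubules, 0 passed, beside 21.6% of all genes. In 4 of these 5 both Sox7-null libraries lay above the wild type, beside 5752 of all 13334 genes tested. Prc1, which bundles the microtubules of the midzone, had 110 and 117 CPM against 95.4 (log2 fold change 0.26). Tpx2, the activator of Aurora A, had 116 and 121 CPM against 101 (0.23), Spag5 stood at 0.36 and Nusap1 at 0.14. Hmmr stood at -0.062. Of the cytokinesis genes, Anln, an actin-binding scaffold of the contractile ring, had 111, 113 and 108 CPM, and Ect2, which activates RhoA at the midzone, had 103, 120 and 118. Mki67, whose product Ki-67 coats mitotic chromosomes and is widely used as a proliferation marker, had 101 and 99.4 CPM against 98.0 (log2 fold change 0.030, 95% interval -0.37 to 0.43), or -0.31 once the length and GC trend was taken out.

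**Figure D3:**
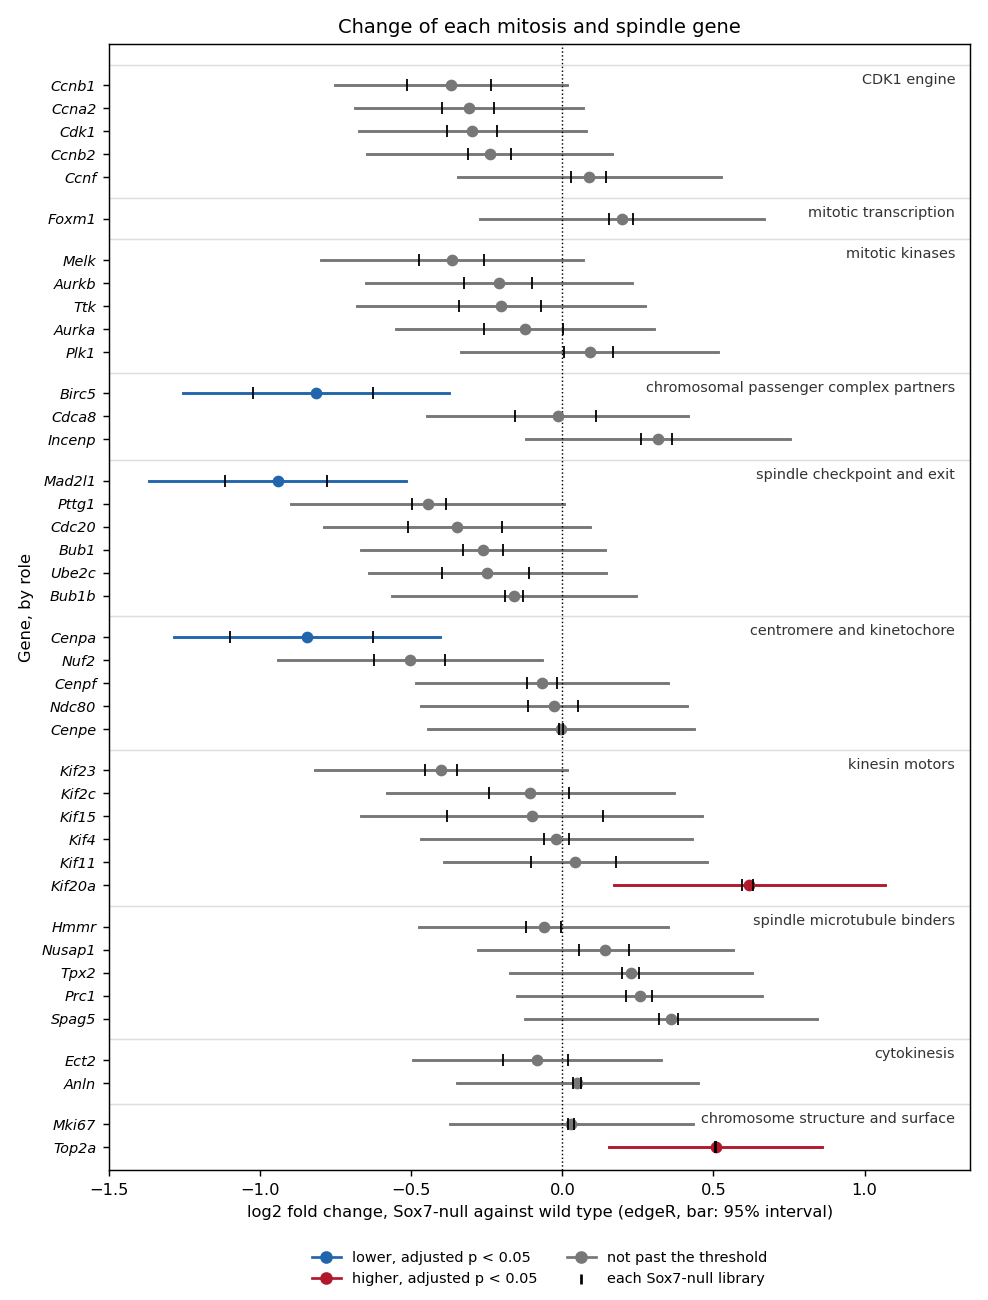
Log2 fold change of each of the 40 genes with its 95% interval, grouped by role; vertical ticks are the separate differences of Sox7-null 1 and 2 from the wild type in log2(CPM + 0.5). Mad2l1, Cenpa and Birc5 (blue) lie below 0, Top2a and Kif20a (red) lie above it, and the grey intervals belong to genes that did not pass.

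A change that was not called is bounded by its interval. The 35 genes that did not pass had log2 fold changes from -0.50 to 0.36, with interval half-widths from 0.37 to 0.56 on the log2 scale. In all 35 the 95% interval lay inside a 2-fold change in either direction, and in 16 it lay inside a 1.5-fold change. Of the 35, 24 had a negative and 11 a positive fold change. These intervals rest on 1 residual degree of freedom among the samples and on a spread shared with other genes.

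The Sox7-null libraries differed from each other in these genes. Sox7-null 1 was below Sox7-null 2 in 35 of the 40, or 87.5%, against 49.5% of all genes tested. The median difference was -0.16 in log2(CPM + 0.5), beside 0.0026 over all genes tested. Cenpa (119 and 165 CPM), Mad2l1, Birc5 and Ccnb1 showed this gap, while Top2a, Kif20a, Mki67, Foxm1 and Kif4 were the 5 exceptions, with Sox7-null 1 the higher. Primitive erythroid markers were also lower in Sox7-null 1. Their summed level over 10 genes was 4554 CPM for Sox7-null 1, against 14487 for Sox7-null 2 and 14041 for the wild type, with Hba-a1 at 0 in all 3 and 0 of 9 tested markers called. Macrophage markers went the other way, at 32.4, 11.7 and 10.2 CPM over 8 genes, with 1 of 5 tested markers called higher. Their part in the values of the mitosis genes was not tested.

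**Figure D4:**
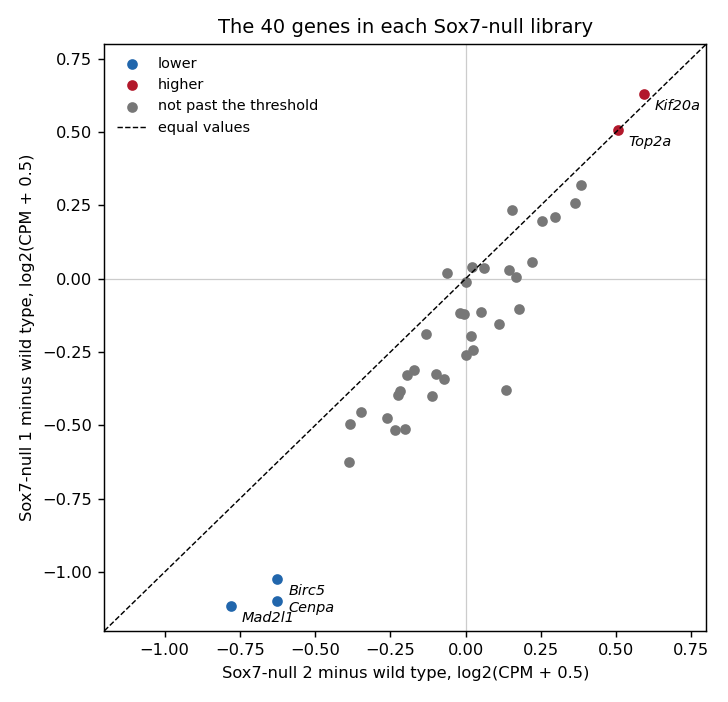
Difference from the wild type in log2(CPM + 0.5) of each of the 40 genes, in Sox7-null 2 (horizontal axis) and Sox7-null 1 (vertical axis), with the line of equal values. Of the 40 points, 35 lie below the line, and both axes share the same wild-type library.

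Markers of other cells differed between the genotypes as well, read beside 11.3% of all genes higher and 10.2% lower. Over 10 cardiomyocyte markers the sum was 33081 and 31908 CPM against 25350 in the wild type, with 5 of 10 rising and 0 falling. Of 7 platelet markers 7 rose (356 and 214 CPM against 59.1), and of 10 foregut and liver markers 8 fell and 1 rose (17.1 and 13.3 CPM against 53.9). Of 10 endothelial markers 4 rose and 2 fell (542 and 517 CPM against 498). Of 7 tested epicardial markers 2 rose (8 genes, 1081 and 842 CPM against 267), and of 9 tested cushion and neural crest markers 1 rose and 4 fell. The cushion and neural crest sum over 10 genes was nonetheless higher, at 1604 and 1235 CPM against 899, while the median log2 fold change was -0.89. A single gene had up to 20337 reads in this list and up to 10671 in the epicardial one, so both sums lean on 1 gene. Of the 8 epicardial genes, 3 lay above the wild type in both Sox7-null libraries, 1 below it in both and 4 on either side. Whether these shifts bear on the mitosis genes was not tested.

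Levels were compared between genes per kb of the longest RefSeq-paired transcript. In the wild type they ran from 4.21 CPM per kb for Kif15 to 263 for Ube2c, with a median of 23.8. Ube2c was first, Cenpa second (174) and Ccnb1 came next (122), and they held these places in the mean of the Sox7-null libraries, at 200 and 244, 81.1 and 113, and 85.4 and 104 CPM per kb in the 2 libraries. In those libraries the ranges of Cenpa and Ccnb1 overlapped. Mad2l1 had rank 4 in the wild type (87.9 CPM per kb) and rank 8 in the Sox7-null mean, and Top2a had rank 8 (53.9) and rank 4. Birc5 had rank 12 in the wild type at 43.8 CPM per kb, but its place depends on the transcript, since the shorter one gives 154. Likewise the shorter transcript of Cenpa gives 692 CPM per kb in the wild type, and 322 and 448 in the Sox7-null libraries, all above Ube2c. Large proteins such as Cenpe, Cenpf and Mki67 were low per kb (5.27, 7.10 and 9.74 in the wild type).

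Other genes of the programme were read from lists of complexes and pathways, also chosen with earlier results of these data known. Of 33 further kinetochore and checkpoint genes 8 fell (24.2%, beside 10.2% of all genes) and 0 rose, with a median log2 fold change of -0.28. Ska1, a microtubule coupler at the kinetochore, fell (19.1 and 20.5 CPM against 36.3, log2 fold change -0.88 ± 0.21, edgeR adjusted p = 0.0118), as did Spc24 (-0.82) and Spc25 (-0.72), the partners of Ndc80 and Nuf2. Once the length and GC trend was taken out 1 of the 33 fell, namely Ska1 (median -0.054), beside 7.06% of all genes. DESeq2 called 2 of the 33 lower, beside 6.24% of all genes. Of 17 genes of the anaphase-promoting complex 3 fell (17.6%) and 0 rose, and DESeq2 called 1 lower. Those that fell were Anapc10 (-0.95 ± 0.22), Cdc26 (-0.80) and Anapc11 (-0.69), and 3 fell with the trend removed, Cdc26 not among them (-0.18, edgeR adjusted p = 0.590). Of 12 genes that control CDK1, 3 fell and 0 rose. Cks2 and Cks1b, small CDK-binding proteins, stood at -0.96 and -0.88, and Arpp19 at -0.72. With the trend removed 2 of the 12 were called lower, beside 7.06% of all genes. Arpp19 was among them (-0.60, edgeR adjusted p = 0.0320), but Cks2 and Cks1b, at -0.24 and -0.30, did not pass there. DESeq2 called 3 of the 12 lower, beside 6.24% of all genes.

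Among genes of chromosome structure and the spindle poles the few calls were upward, but in a share below the 11.3% of all genes called higher. Of 21 cohesin, condensin and separase genes 2 rose and 0 fell. These were the condensin subunit Ncapd2 (109 and 107 CPM against 62.4, log2 fold change 0.79 ± 0.19, edgeR adjusted p = 0.0129) and the cohesin subunit Smc1a (0.75 ± 0.20). This is 9.52% of the list, beside 11.3% of all genes, and DESeq2 also called 2 higher, beside 8.8% of all genes. With the trend removed 2 of the list rose, beside 9.13% of all genes. Smc1a was among them, but Ncapd2 did not pass there (edgeR adjusted p = 0.0926). Of 18 centrosome and spindle pole genes 1 rose (5.56%). This was Ckap5, a microtubule polymerase, with 166 and 138 CPM against 68.9 (log2 fold change 1.14 ± 0.20, edgeR adjusted p = 0.00262). Of 15 genes of the DREAM and B-Myb complexes, which switch mitotic genes off and on, 2 fell (Rbbp4 -0.73, E2f5 -0.87) and 1 rose (Rbl2 1.05). That is 13.3% lower and 6.67% higher, beside 10.2% and 11.3% of all genes. Of these called genes Rbbp4 alone passed with the trend removed. DESeq2 called 1 of the list lower and 0 higher, beside 6.24% and 8.8% of all genes. Of 22 other mitotic kinesin and cytokinesis genes 1 fell (4.55%), the kinase gene Pbk (-1.03 ± 0.20).

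The phases before mitosis were read in the same fit. Of 44 DNA replication genes 21 fell and 0 rose, or 47.7%, with a median of -0.62. Once the trend was taken out 17 fell (median -0.55), beside 7.06% of all genes. DESeq2 called 11 of the 44 lower, beside 6.24% of all genes. Sox7-null 1 alone gave a median of -0.82, Sox7-null 2 alone -0.43. Rrm2, a subunit of ribonucleotide reductase, fell (110 and 169 CPM against 376, log2 fold change -1.43 ± 0.22, edgeR adjusted p = 0.00115), as did the thymidylate genes Tyms (-1.39) and Tk1 (-1.22). Of 22 tested G1 cyclins, CDKs and CDK inhibitors 3 rose (13.6%, beside 11.3% of all genes) and 5 fell (22.7%, beside 10.2%). DESeq2 called 2 higher and 2 lower, beside 8.8% and 6.24% of all genes. The inhibitors Cdkn1a (2.10 ± 0.34) and Cdkn1b (1.19 ± 0.23) rose, and the cyclin Ccne1 fell (-1.40 ± 0.28). Beside these, 3 of 40 mitosis and spindle genes fell and 2 rose. The difference between the replication and the mitosis lists was not tested.

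**Figure D5:**
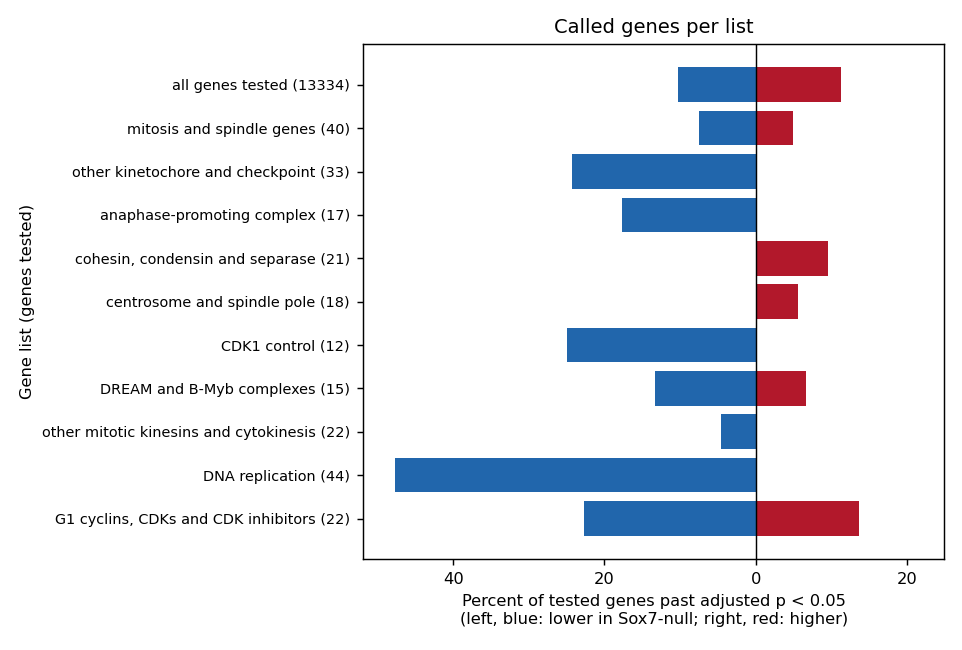
Percent of tested genes that were lower (left, blue) or higher (right, red) in the Sox7-null libraries at an edgeR adjusted p under 0.05, for all genes tested, the 40 mitosis and spindle genes and 9 pathway lists, with the number tested in brackets. The mitosis genes stand at 7.5% lower and 5.0% higher, all genes at 10.2% and 11.3%, and DNA replication genes at 47.7% lower.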

How the data were processed

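Total RNA from mouse heart tubes was sequenced in 3 libraries (500 ng input each, stranded kit, per the labels' protocols). The authors deposited raw read counts for each gene symbol. The submitters' processing notes name CASAVA, TopHat2, HTSeq and DESeq2 1.10.1, and the builds hg19 and GRCh37, although the symbols are those of mouse. The 5 summary lines of each library were not used. Reads with no feature made up 8.10%, 8.52% and 11.7%.

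Counts were tested with edgeR 4.0.16 (glmQLFit, glmQLFTest; R 4.3.3), TMM scaling and filterByExpr (minimum count 10), which kept 13334 genes. Genotype was the only term, with Benjamini-Hochberg adjustment over all genes tested. CPM values use TMM-scaled library sizes. The fit had 1 residual and 11.8 prior degrees of freedom and was tested on simulated data. The trend was a loess fit (span 0.3) on length and GC content from GENCODE M21, known for 99.0% of tested genes. Alternatives were DESeq2 1.42.0, limma-voom (limma 3.58.1), other scalings and filters, removal of that trend and leaving out each Sox7-null library.

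All 205 pathway entries matched a symbol, 8 of them an older one. The members and lists were chosen with earlier results of these data known. All members are named, and from each pathway list up to 3 called genes by smallest p. Cdc23 was added for its overlap with Kif20a. Some results on marker genes are not reported here.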

Additional observations from a re-analysis of the deposited data

How the results depend on the processing

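With DESeq2-type size factors or library totals alone the same 5 members were called. DESeq2 and limma-voom kept Mad2l1, Cenpa and Birc5 and called 0 members higher. At an unadjusted p under 0.05, DESeq2 had 2 members higher and 3 lower, and limma-voom 2 higher and 4 lower. Over all genes, in either direction, 3041 of 17242 passed at that level with DESeq2 and 4576 of 13334 with limma-voom. A mean of at least 5 CPM called 1 member higher, Top2a. Removing the length and GC trend left 0 higher and 1 lower, with the longest transcript (Birc5) and with the shortest (Mad2l1), which was chosen after seeing the data. Without a filter edgeR called 0 of 17242 genes, 0 members and 0 pathway genes in either direction (4113 genes, 2 members higher and 3 lower at an unadjusted p under 0.05), and Sox7 stood at -5.61 (edgeR adjusted p = 0.122). The cause was not tested. DESeq2 called 969 genes higher and 687 lower over all genes, and 21 pathway genes lower in place of 43. Library totals alone called 13 pathway genes higher in place of 7. Values with each Sox7-null library left out are differences in log2(CPM + 0.5), not edgeR fold changes. They gave Sox7 from -4.73 to -4.09. The added 0.5 shrinks the value of a gene with so few reads, so these cannot be set against its edgeR values. The median of the 40 genes ran from -0.19 to -0.0024, with Top2a at 0.51 and Kif20a at 0.59 without replicate 1. With 1 library against 1 no calls could be made.

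The sign turned only in genes that were not called. With the trend removed these were Ccnb2 0.045, Ccnf -0.17, Foxm1 -0.15, Cdca8 0.15, Ube2c 0.23, Ndc80 0.22, Hmmr 0.047, Ect2 0.045 and Mki67 -0.31. With the shortest transcripts they were Ccnf -0.19, Foxm1 -0.17, Plk1 -0.010, Cdca8 0.082, Ube2c 0.10, Pttg1 0.069, Ndc80 0.16, Hmmr 0.025, Ect2 0.027, Anln -0.013 and Mki67 -0.30. With library totals alone they were Cdca8 0.067, Cenpe 0.078, Cenpf 0.016, Ndc80 0.055, Kif4 0.064 and Hmmr 0.021. Cenpe was 0.0091 without a filter, 0.00025 at 5 CPM and 0.0017 with DESeq2. Without replicate 1 the sign also turned in Aurka (0.0014), Cdca8 (0.11), Cenpe (0.00072), Ndc80 (0.053), Kif15 (0.14), Kif2c (0.024) and Ect2 (0.019), and without replicate 2 in Kif11 (-0.11) and Kif4 (0.020). No paired analysis was possible because the wild-type group holds 1 library and no label links it to either Sox7-null library. The single wild-type library limits every comparison, and genotype and library cannot be told apart on that side.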
